A study of Rattus norvegicus with 8 samples.

Results

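Connexins are the subunits of gap junction channels: a ring of them forms a hemichannel, and hemichannels of neighbouring cells dock into a channel that lets ions and small metabolites pass. Each cell type of the brain uses its own set. Astrocytes couple through Cx43 (Gja1), Cx30 (Gjb6) and Cx26 (Gjb2), and oligodendrocytes carry Cx32 (Gjb1) and the glial connexin encoded by Gjc3, through which myelinating cells are joined to the astrocyte network. Cx37 (Gja4) and Cx40 (Gja5) belong to arterial endothelium, and Cx36 (Gjd2) forms the electrical synapses of neurons.

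The 8 connexin genes were Gja1, Gjb6, Gjb2, Gjb1, Gjc3, Gja4, Gja5 and Gjd2, read through the probe sets (groups of short array probes that together read 1 transcript) annotated to exactly 1 of them. On the array type named chip A 7 of the 8 were measured, among 10411 genes with such a probe set, and on chip B 0 of 5667. They had 10 of the 15866 probe sets tested on chip A, and 0 of the 15276 on chip B, with 3 probe sets for Gja1, 2 for Gja5 and 1 for each other gene. Gjc3 had no such probe set and has no value here. No probe set annotated to several genes named a member (0 on both array types). The rule names the genes by family and by the cell type they are known from and uses no measured value. The genes were nevertheless chosen with earlier results of these data known.

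RNA came from cells of rat brain at postnatal day 7, isolated as A2B5/OTMP+ by flow cytometry (A2B5 recognizes gangliosides on glial precursors) and called perineuronal oligodendrocytes in the labels. The 4 biological replicates were each read on both array types, which makes 8 samples. There was 1 cell population, with no control group, no treatment and no strain or sex in the labels. The labels read here do not state how many animals made up a replicate, so p-values measure only the spread between these samples. The tests take the reference as exact, so an error in it that the 4 arrays share is left out of every higher or lower call. Every value is a linear ratio between the signal of a probe set and that of a reference the labels leave unnamed. A ratio of 1 (log2 of 0) is the reference's own signal, and a ratio says neither how bright a gene was nor whether it was expressed. The median ratio of an array ran from 0.903 to 0.946 on chip A.

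Each of the 3 astrocytic connexin genes had a probe set above the reference, and the oligodendrocytic Gjb1 stood below it. Of the 10 connexin probe sets, 3 were higher than a ratio of 1 by limma's two-sided test with Benjamini-Hochberg adjustment over all of chip A at 0.05, against 9.21% of all tested probe sets. These 3 belonged to Gja1, Gjb6 and Gjb2, at geometric mean ratios of 1.68, 1.67 and 1.66. Another 3 were lower (Gjb1, 1 of the Gja1 and 1 of the Gja5 probe sets), against 30.1% of all tested probe sets, so the share of lower members was that of the array. The remaining 4 did not pass. The median of the 10 mean log2 ratios was 0.075, beside -0.11 over all tested probe sets. After each array was centred on its median, which added 0.12 to log2 ratios on average, the same counts of 3 and 3 were found, while over chip A the share of calls that were higher went from 23.5% to 33.7%.

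**Figure D1:**
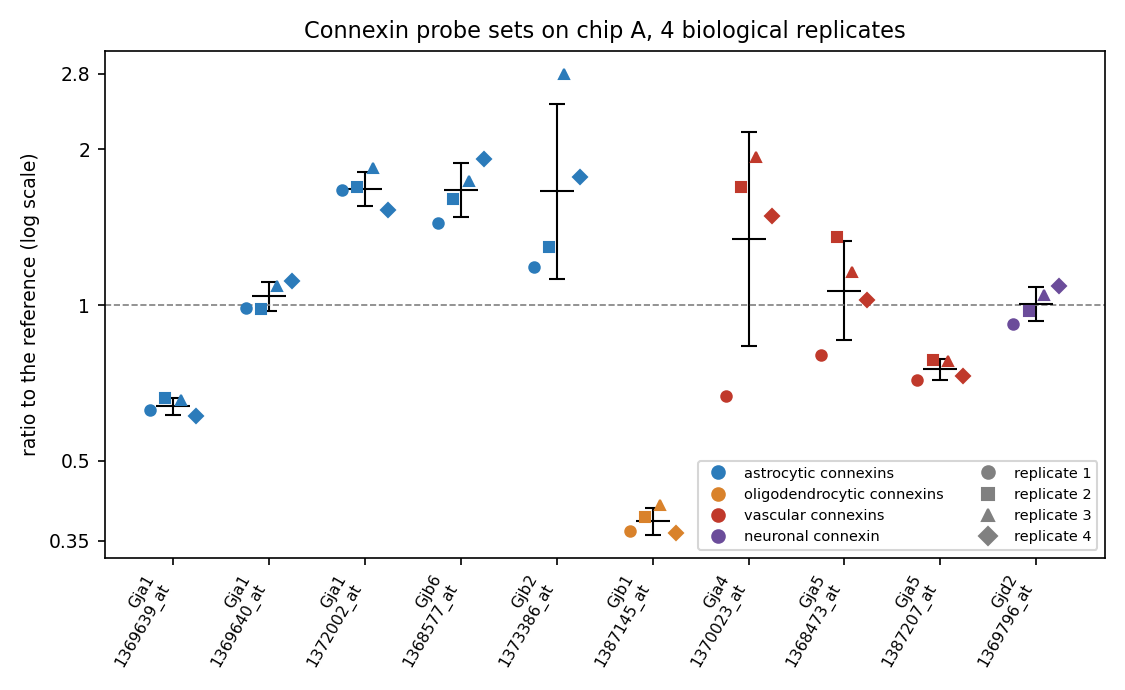
Ratio to the reference (log scale) of the 10 connexin probe sets on chip A; symbols are the 4 biological replicates, coloured by the cell type each connexin is known from, and black bars are the mean log2 ratio ± SD. The probe sets of Gjb6, Gjb2 and 1 of Gja1 lie above 1 in all 4 replicates, and Gjb1 lies lowest, between 0.363 and 0.411.

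Gja1 encodes Cx43, the main astrocyte connexin, which is also present in vessels, meninges and ependyma. Its 3 probe sets did not give 1 answer. The highest of them (1372002_at) held ratios of 1.671, 1.69, 1.841 and 1.527 in replicates 1 to 4, a mean log2 ratio of 0.75 ± 0.11 (SD, n = 4; limma adjusted p = 0.000896). All 4 replicates were above 1 and close to each other.

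The middle Gja1 probe set (1369640_at) held 0.986, 0.982, 1.087 and 1.113, a mean log2 ratio of 0.057 ± 0.094 (limma adjusted p = 0.562), with replicates on either side of 1. The lowest (1369639_at) held 0.627, 0.66, 0.655 and 0.609, a mean log2 ratio of -0.65 ± 0.055 (limma adjusted p = 0.000887), below 1 in every replicate. The 3 series of ratios did not overlap. The platform annotation gives the same source sequence for the middle and the lowest probe set and another one for the highest. On the same arrays the log2 ratio of the highest exceeded that of the lowest by 1.40 ± 0.073, and the difference was positive in 4 of 4 replicates. Which of them follows the gene's transcripts was not tested, so a direction for Gja1 holds for the probe set named.

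Gjb6 encodes Cx30, a connexin of mature astrocytes. Its ratios were 1.444, 1.607, 1.736 and 1.921, a mean log2 ratio of 0.74 ± 0.17 (SD, n = 4; limma adjusted p = 0.00197). All 4 replicates were above 1, with the lowest in replicate 1. In each of the 10 alternative settings of this test Gjb6 and the highest Gja1 probe set passed, with limma adjusted p of at most 0.0114 and 0.00637.

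Gjb2 encodes Cx26, found in astrocytes and in the meninges. Its ratios of 1.185, 1.295, 2.802 and 1.766 were above 1 in all 4 replicates, with replicate 3 far above replicates 1 and 2. The mean log2 ratio was 0.73 ± 0.56 (SD, n = 4), almost the same as for Gjb6 but with a spread wider than that of 94.4% of probe sets on the array type. It just passed (limma adjusted p = 0.0483). The call held in 4 of 10 alternative settings and was lost without replicate 2 (limma adjusted p = 0.0547), replicate 3 (0.0641, mean log2 ratio 0.48) or replicate 4 (0.137). It was also lost with quantile normalization (0.0889), a pseudocount of 0.1 (0.0526) and a trended, robust prior (0.0547).

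Meningeal cells and fibroblasts also carry Cx26. The median log2 ratio over the 14 measured genes of that list was 0.019, -0.0038, 0.77 and 0.47 in replicates 1 to 4. Of these 14 genes 9 were highest in replicate 3, against 33.9% of all genes, but so were 10 of 14 mural genes, 11 of 13 microglia genes and 59 of 99 genes of a panel of other organs. The collagen genes that open the list differed from each other: Col1a2 held 1.027, 0.789, 2.803 and 1.43 on 1 probe set and 1.264, 1.018, 1.396 and 1.395 on the other. Col1a1 was highest in replicate 4 on both of its probe sets (1.537 and 4.801), and Col3a1 held 0.976, 0.735, 1.011 and 0.989. The astrocyte list had medians of 1.25, 0.80, 1.40 and 0.83, also highest in replicate 3. The part of either cell type in the Gjb2 ratio was not tested, and in such bulk samples fewer cells of a type and less RNA per cell cannot be told apart.

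Gjb2 and Gjb6 are neighbours in the rat genome. In the RefSeq annotation of assembly GRCr8, Gjb2 spans chr15:35375977-35393817 and Gjb6 chr15:35400147-35410649, with 6329 bases between them. Gja1 lies at chr20:36302490-36315010 and Gjb1 at chrX:70541845-70549776. The log2 ratio of Gjb6 minus that of Gjb2 was 0.29, 0.31, -0.69 and 0.12 in replicates 1 to 4, so Gjb2 exceeded its neighbour only in replicate 3.

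The 250 bases before an annotated transcript start are shown for the 3 genes with a higher probe set and for Gjb1, the lowest connexin, to set the groups side by side. All 8 genes had a window in the RefSeq table for GRCr8. These starts are not alike in place. The Gjb1 window ends where the gene span given above begins, while the Gja1 window runs into its span. The Gjb2 and Gjb6 windows lie wholly inside theirs. Sequences are written 5′ to 3′ on the gene's strand, and capitals mark TTAAAA or its reverse complement TTTTAA, a variant of the TATA box. Gjb6 lies on the minus strand (chr15:35410139-35410388, the outer of its 2 windows), as does Gjb2 (chr15:35381954-35382203), while Gja1 (chr20:36302314-36302563) and Gjb1 (chrX:70541595-70541844) lie on the plus strand.
Gjb6: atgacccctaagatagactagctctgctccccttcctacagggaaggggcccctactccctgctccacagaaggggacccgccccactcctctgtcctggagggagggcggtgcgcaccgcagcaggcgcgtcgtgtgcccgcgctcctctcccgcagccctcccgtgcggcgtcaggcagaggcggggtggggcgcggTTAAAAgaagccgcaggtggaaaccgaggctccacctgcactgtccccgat
Gjb2: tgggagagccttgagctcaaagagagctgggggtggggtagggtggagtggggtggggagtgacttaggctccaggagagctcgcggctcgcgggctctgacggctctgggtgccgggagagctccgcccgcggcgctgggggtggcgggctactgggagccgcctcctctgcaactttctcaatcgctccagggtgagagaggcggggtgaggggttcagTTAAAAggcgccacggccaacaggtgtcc
Gja1: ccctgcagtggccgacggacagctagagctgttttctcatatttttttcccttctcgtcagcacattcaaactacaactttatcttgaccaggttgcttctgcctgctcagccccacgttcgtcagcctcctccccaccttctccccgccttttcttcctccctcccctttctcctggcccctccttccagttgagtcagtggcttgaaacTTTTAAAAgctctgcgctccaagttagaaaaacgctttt
Gjb1: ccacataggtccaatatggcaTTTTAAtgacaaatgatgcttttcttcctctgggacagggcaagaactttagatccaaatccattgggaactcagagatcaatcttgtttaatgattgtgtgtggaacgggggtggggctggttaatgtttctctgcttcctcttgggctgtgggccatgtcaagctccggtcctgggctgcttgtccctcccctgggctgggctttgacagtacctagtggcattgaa

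In the windows shown, all 3 astrocytic genes held the TTAAAA letters close to the start, with the first base 51 bases before it in Gjb6, 29 in Gjb2 and 39 and 37 in Gja1, where a match on each strand overlaps. The inner Gjb6 window (chr15:35408963-35409212), not shown, held 0 matches. In Gjb1 the match began 229 bases before the start. The motif was chosen after these windows were read. Within the last 70 bases, 4.80% of all 33469 windows hold it on either strand. Counted by gene and not by window, 5 of the 8 connexin genes did, among them Gja5 and Gjd2, which had no higher probe set. The 8 genes have 9 windows, and Gjb6 was counted through its outer one. The letters TATAAA, also searched on both strands, were in 12.9% of windows and in that of Gja5 alone among the 9 connexin windows. GGGCGG, the GC box, was in 30.5% of windows and in those of Gjb6 and Gjb2 but not in those of Gja1 and Gjb1. ACAAAG, the core bound by SOX factors, was in 16.3% of windows in none of the 4 shown and in the inner window of Gjb6, 86 bases before the start. A match is a description of letters and was not related to the ratios by any test.

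Gjb1 encodes Cx32, which oligodendrocytes and Schwann cells place in myelin, and it was the only measured oligodendrocytic member. Its ratios of 0.365, 0.389, 0.411 and 0.363 were below 1 in every replicate. The mean log2 ratio was -1.39 ± 0.085 (SD, n = 4; limma adjusted p = 0.000117), lower than that of each other connexin probe set. Only 1.97% of tested probe sets, 313 in number, stood as low or lower. On the same arrays the log2 ratio of Gjb6 exceeded that of Gjb1 by 2.13 ± 0.19 and that of the highest Gja1 probe set by 2.14 ± 0.053, in 4 of 4 replicates each. Such a difference compares how far each gene lay from its own reference, not the levels of the genes.

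A low and even ratio was also seen in probe sets with no rat target. All 27 bacterial control probe sets of the dap, lys, phe, thr and trp genes on chip A had mean log2 ratios below 0, with SDs from 0.053 to 0.13. Of these 24 lay between -0.91 and -0.053, and 3, all of thr, lay lower. The lowest held 0.386, 0.411, 0.405 and 0.381, a mean log2 ratio of -1.34. By mean 0 of the 45 bacterial and phage controls were as low as Gjb1 (-1.39). The ratios of the lowest control and of Gjb1 overlapped, and in replicate 3 the control was the lower (0.405 beside 0.411). The other 18 controls lay from -0.043 upward, 16 of them above 0. Among the 106 probe sets of a panel of genes of other organs, 2 were as low as Gjb1. The 3 connexin probe sets that were lower than 1 all had SDs under 0.1, as did 22.5% of tested probe sets, and of the probe sets with so small an SD 61.2% were lower than 1. Whether the Gjb1 probe set detected its transcript was not tested, and its ratio does not by itself show that the gene was less expressed.

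**Figure D2:**
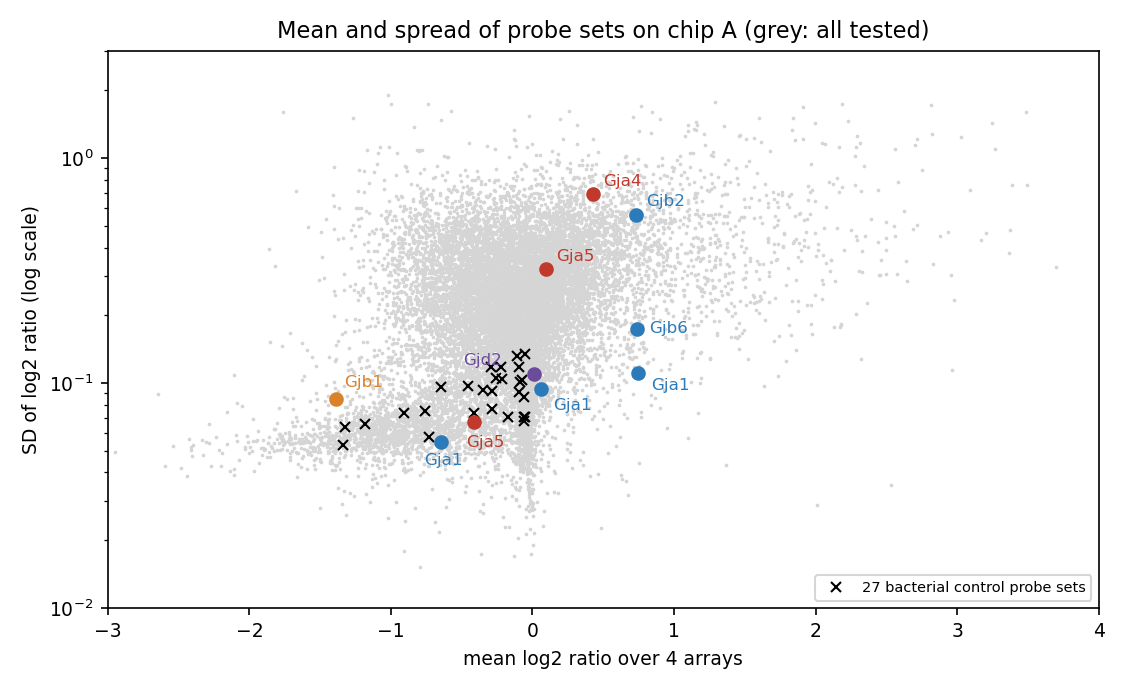
Mean log2 ratio (x axis) and SD of the log2 ratio over 4 arrays (y axis, log scale) for every tested probe set of chip A (grey), the 10 connexin probe sets (coloured by class as in the plot by replicate: blue astrocytic, orange oligodendrocytic, red vascular, purple neuronal) and 27 bacterial controls (crosses). The lower connexin probe sets have SDs of 0.055 to 0.085, within the 0.053 to 0.13 of the controls. The mean of Gjb1 (-1.39) is just below that of the lowest control (-1.34). Gja4 (SD 0.69) and Gjb2 (0.56) are among the most variable.

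Other markers put the connexins in context. Of 20 astrocyte marker genes 17 had a probe set higher than 1 (85.0%, against 9.23% of all 13810 genes with a single-gene probe set), 3 of them with a lower one as well, and the list's median log2 ratio was 1.05. Gfap, the astrocyte filament gene, held 2.79, 3.137, 2.463 and 2.294. The higher connexin probe sets, at 1.66 to 1.68, lay less far above their reference than Gfap or Aldh1l1, the folate enzyme gene, at 7.53, 6.392, 6.31 and 3.337. Among 18 oligodendrocyte and myelin markers 0 were higher and 6 had a lower probe set (33.3%, against 37.7% of all genes), with a list median of -0.032. None of the 3 first markers of that list, Mbp, Mog and Mag, passed at any probe set. Of 6 genes of the oligodendrocyte lineage, 1 was higher and 1 lower (16.7% each). Neuron markers had a higher probe set in 9 of 18 genes (50%), 2 of which also had a lower one, and microglia markers in 0 of 13. Lower probe sets were found for 16.7% of the neuron genes and for 5 of the 13 microglia genes (38.5%, near the share of all genes). Ratios cannot say which of these genes were absent.

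Gja4 encodes Cx37 of arterial endothelium. Its ratios were 0.667, 1.694, 1.93 and 1.486, below 1 in replicate 1 and above 1 in the other 3. The mean log2 ratio was 0.42 ± 0.69 (SD, n = 4), and it did not pass (limma adjusted p = 0.269). Without replicate 1 the mean log2 ratio was 0.76 and passed (limma adjusted p = 0.00859), in a setting where 6.76% of chip A probe sets were higher. With any other replicate left out it did not pass (0.469 to 0.558).

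Gja5 encodes Cx40, the other connexin of arterial endothelium. Its higher probe set (1368473_at) held 0.802, 1.357, 1.159 and 1.025, again lowest in replicate 1, at a mean log2 ratio of 0.093 ± 0.32 (limma adjusted p = 0.629, and 0.2 without replicate 1). The lower one (1387207_at) held 0.716, 0.783, 0.781 and 0.728, an even series below 1 at -0.41 ± 0.067 (limma adjusted p = 0.00536). The annotation gives the same source sequence for both Gja5 probe sets. The log2 difference between them was 0.16 in replicate 1 and 0.49 to 0.79 in the others.

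Endothelial genes as a whole were low in replicate 1. Of 19 measured endothelial markers, none of them a connexin, 17 had their lowest ratio there, against 30.3% of all genes, and 15 their highest in replicate 2. The list's median log2 ratio was -0.47, 0.43, 0.19 and 0.12 in replicates 1 to 4. Pecam1, an adhesion molecule of endothelium, held 0.475, 1.347, 0.997 and 1.003. Cldn5, the tight junction protein of brain capillaries, held 0.733, 1.645, 1.364 and 1.476, and Tek, the angiopoietin receptor, 0.799, 3.051, 1.58 and 1.654. Gja4 and both Gja5 probe sets were lowest in that replicate too, but so were Gjb6, Gjb2 and Gjd2, 6 of the 10 connexin probe sets in all, and 41 of the 99 genes of the panel of other organs. Gja4 was highest in replicate 3, unlike most of these markers. Over all 4 replicates 1 of the 19 endothelial genes was higher (5.26%, against 9.23% of all genes) and 1 lower (5.26%, against 37.7%). Of 14 mural and smooth muscle genes 7 were lowest in replicate 1. The part of endothelial RNA in the Gja4 ratio was not tested.

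**Figure D3:**
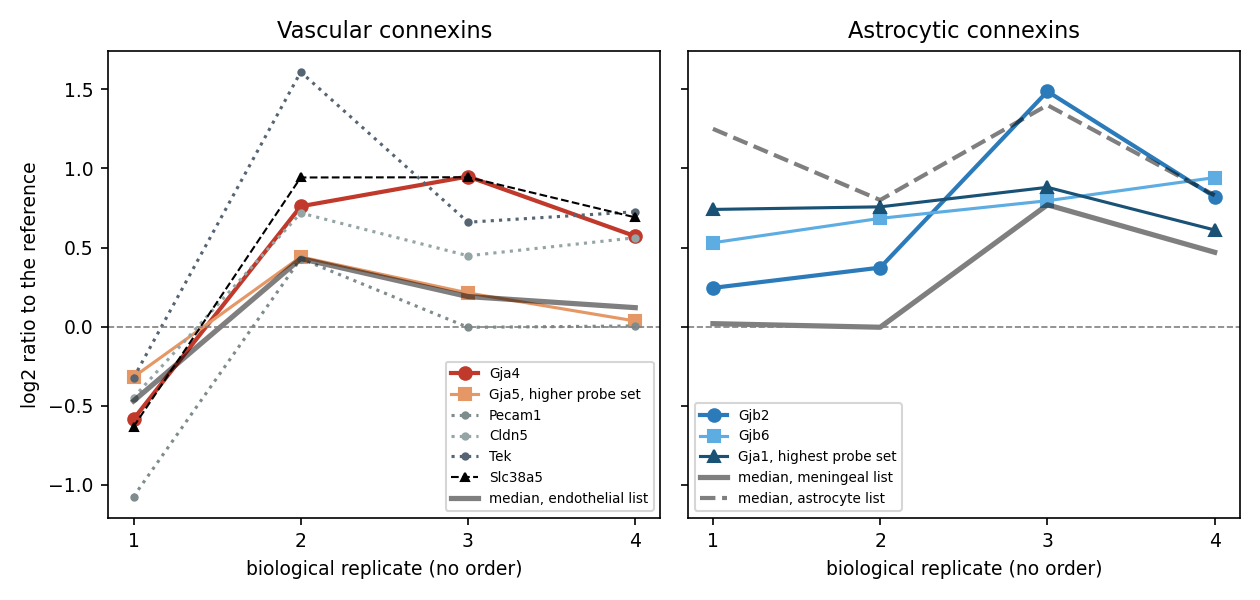
Log2 ratio to the reference in each biological replicate (lines join values of 1 probe set or list and imply no order). On the left are Gja4, the higher Gja5 probe set, Slc38a5, 3 endothelial markers and the median of the endothelial list. On the right are Gjb2, Gjb6, the highest Gja1 probe set and the medians of the meningeal and astrocyte lists. Every vascular series on the left is lowest in replicate 1, where the list median was -0.47. Gjb2, the highest Gja1 probe set and both list medians on the right are highest in replicate 3, and Gjb6 in replicate 4.

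Gjd2 encodes Cx36 of neuronal electrical synapses. Its ratios of 0.918, 0.974, 1.047 and 1.09 lay on either side of 1, and the mean log2 ratio was 0.0073 ± 0.11 (SD, n = 4; limma adjusted p = 0.948). In order of mean log2 ratio the connexin probe sets ran from Gjb1 (-1.39) through the lowest of Gja1 (-0.65), the lower of Gja5 (-0.41), Gjd2, the middle of Gja1 (0.057), the higher of Gja5 (0.093) and Gja4 (0.42) to Gjb2, Gjb6 and the highest of Gja1. The top 3 lay within 0.016 of each other, with replicate SDs of 0.11 to 0.56, and did not differ beyond their spread. Gjd2, the middle Gja1 and the higher Gja5 probe set lay within each other's SD, though on the same arrays the middle Gja1 probe set exceeded Gjd2 by 0.050 ± 0.040, in 4 of 4 replicates.

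**Figure D4:**
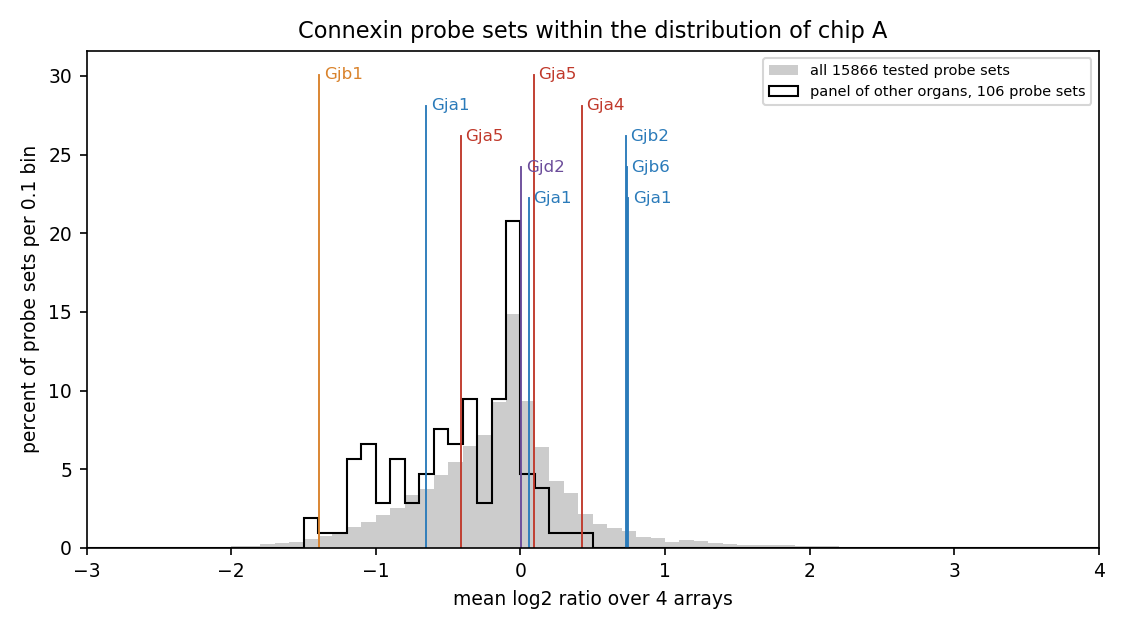
Distribution of the mean log2 ratio over 4 arrays for all 15866 tested probe sets of chip A (grey, percent of probe sets per bin of 0.1) and for the 106 probe sets of the panel of other organs (black outline), with lines at the connexin probe sets, coloured by class. Gjb1 lies in the low tail and Gjd2 at the peak. The lines of Gjb2, Gjb6 and 1 of Gja1 fall together above the mean of every panel probe set, and that of Gja4 also lies above them. Against the highest panel value within each array, the same probe sets lay below it on average, from -0.096 for Gja1 to -0.42 for Gja4.

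A stricter comparison asked which probe sets stood above genes not expected in brain cells. The panel level was the 95th percentile of 106 probe sets for genes of other organs, such as digestive enzymes and liver proteins, and lay at ratios of 0.991, 1.16, 1.19 and 1.07 in replicates 1 to 4. By limma's one-sided test 2 of the 10 connexin probe sets were above it, against 3.59% of all tested probe sets. The highest Gja1 probe set exceeded the level by 0.61 on the log2 scale (limma adjusted p = 0.0125) and Gjb6 by 0.60 (0.0206). Gjb2 exceeded it by 0.60 without passing (limma adjusted p = 0.213). Without replicate 1 no connexin passed (0 probe sets; the Gja1 probe set had limma adjusted p = 0.0666 and Gjb6 0.148, at unadjusted p of 0.000546 and 0.00338), but then 9 probe sets of chip A did, 0.0567%. Without replicate 4 Gjb6 was lost (limma adjusted p = 0.065). With a trended, robust prior both were lost (0.101 and 0.12).

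Few other family members were measured. Of 15 other connexins and pannexins, 6 genes had a probe set named by 1 gene. Gjc1, which encodes Cx45 of smooth muscle and neurons, was read on chip B, where 5.08% of probe sets were higher than 1 and 27.1% lower. It held 1.228, 1.488, 1.762 and 1.144, above 1 in 4 of 4 replicates at a mean log2 ratio of 0.47 ± 0.28 (limma adjusted p = 0.0448). It exceeded the panel level of chip B by 0.42 without passing limma's one-sided test (adjusted p = 0.0928), which 3.48% of chip B probe sets passed (the level was carried over from chip A). The call against 1 was lost without any 1 of the replicates (limma adjusted p from 0.0505 to 0.151). It was the only higher one among the 6 (16.7%, against 9.23% of all genes).

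The other 5 genes each had a lower probe set (83.3% of the 6, against 37.7% of all genes). Gja3, a lens connexin, stood at -0.90 ± 0.042 (limma adjusted p = 0.000255), Gja6 at -0.79 ± 0.060 (0.000444) and Gjb5, an epithelial connexin, at -0.38 ± 0.067 (0.00706). Their ratios differed by at most 1.09-fold between replicates, beside 1.13-fold for Gjb1. Panx1, a channel protein of a separate family, had 3 probe sets on chip B, at -1.44 ± 0.029, -0.78 ± 0.072 and -0.24 ± 0.41, of which the first 2 were lower (limma adjusted p = 6.14e-05 and 0.000351). Panx3 stood at -0.19 ± 0.053 (limma adjusted p = 0.032), a call lost after centring on the array median (0.105) and without any 1 replicate (0.0778 to 0.111).

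Of 26 measured genes that bind or regulate gap junctions, 1 had only higher probe sets, 10 only lower, 2 both and 13 neither, and their median log2 ratio was -0.26, against -0.16 over all genes. A higher probe set was found for 11.5% of them, against 9.23% of all genes, and a lower one for 46.2%, against 37.7%. The gene with only higher calls was Dbn1, which encodes drebrin, an actin-binding partner of Cx43. It held 1.644, 1.847, 1.875 and 1.519, a mean log2 ratio of 0.78 ± 0.14 (limma adjusted p = 0.00113). Cdh2, the N-cadherin gene, had probe sets at 0.83 and 0.85 on chip A and a lower one at -0.56 on chip B. Tjp1, the scaffold protein ZO-1 at gap and tight junctions, stood at -0.093 ± 0.16 and -0.092 ± 0.093 without passing. The gene lists were drawn up from general knowledge, and Dbn1, Cdh2 and Tjp1 were picked from this list after its values were seen.

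The genes nearest in pattern were found by the root mean square difference of the 4 log2 ratios, among 12780 or 12782 other single-gene probe sets of chip A, for the probe set of each class farthest from 0. Nearest to the highest Gja1 probe set were Tril (0.0501), the astrocyte gene Sparcl1 (0.0523; ratios of 1.651, 1.644, 1.784 and 1.441) and P4htm (0.0659). Only 8 probe sets lay within 0.1 of it. Nearest to Gja4 were the amino acid transporter gene Slc38a5 (0.112; ratios of 0.645, 1.922, 1.924 and 1.614), the organic anion transporter gene Slc22a8 (0.17), both active at the blood-brain barrier, and Ctrl (0.186), a digestive protease gene, and none lay within 0.1 (0 probe sets). Slc22a8 is also in the panel of other organs.

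Gjb1 had 146 probe sets within 0.1, led by Kif1b (0.0157), Epha8 (0.0179) and Syt7 (0.0200), and Gjd2 had 256, led by Nkx6-1 (0.0117), Pmm2 (0.0212) and Mllt1 (0.0216). More probe sets thus lay within 0.1 of Gjb1 and Gjd2 than of the highest Gja1 probe set and Gja4. Such a count depends on how common the mean and SD of a probe set are on the array type. It was not set against probe sets of like mean and SD, so it is not a result about these genes. With 4 arrays, likeness of pattern describes these replicates only.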

How the data were processed

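RNA was profiled on 2 Affymetrix array types with 4 replicates each, after extraction with a Qiagen kit and biotin labelling by a small-sample protocol, per the labels' protocols. Per the submitters' processing notes the tool was RMA (no version given). What the authors deposited are linear ratios to a reference of unknown identity and size, not the log2 intensities RMA usually gives. The number of arrays limits the precision, and brightness and background cannot be read from ratios.

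Ratios were put on the log2 scale here, and 57 control probe sets per type were left out. Genes came from the platform annotation, where 12783 probe sets of chip A had 1 symbol, 312 several and 2771 none, and 12748 had a gene ID in RefSeq (0 symbols updated). On chip B the counts were 7564, 100, 7612 and 7524 (0 updated). limma 3.58.1 in R 4.3.3 fitted an intercept per probe set with eBayes, within an array type, two-sided against 0 or one-sided above the panel level, with Benjamini-Hochberg adjustment at 0.05. Chip B held 6 panel probe sets, so its level was carried over from chip A through 100 shared probe sets. The fit was tested on simulated data. Named genes were all members, all measured genes of the other connexin list, the first 3 of each marker list where used, and the 3 nearest in pattern. Dbn1, Cdh2 and Tjp1 were named outside this rule, after their values were seen. Members, lists and tests were chosen with earlier results of these data known.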

Additional observations from a re-analysis of the deposited data

How the results depend on the processing

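No paired analysis was possible because the series has 1 cell population, and the groups that share replicate numbers are array types with different probe sets. Against a ratio of 1, the 3 lower connexin probe sets were found in every alternative, and the count of higher ones ran from 2 to 4 with 1 replicate left out. On chip A the counts were then 1073 to 1343 higher and 3782 to 4292 lower, and on chip B 556 to 860 and 3654 to 3771. With single-gene probe sets only, which leaves fewer to test, chip B had 289 higher and 2055 lower. Quantile normalization, a pseudocount of 0.1 and a trended, robust prior each gave 2 higher connexin probe sets, since Gjb2 did not pass.

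The test above the panel level depended on its settings. With 1 replicate left out it called 0 to 2 connexin probe sets, 9 to 605 probe sets on chip A and 568 to 1100 on chip B. A trended, robust prior gave 0 connexin probe sets, 273 and 199. The panel median as the level gave 7 connexin probe sets, 7621 and 9077, and turned the higher Gja5 (0.48) and the middle Gja1 probe set (0.44), Gjd2 (0.39) and Panx3 (0.28) from below to above the level, where they passed, and Gjb5 (0.0012) and a Panx1 probe set (0.23), which did not. The panel maximum gave 0 connexin probe sets, 194 and 95, and turned Gjb6 (-0.10), the highest Gja1 probe set (-0.096), Gjb2 (-0.11), Gja4 (-0.42) and Gjc1 (-0.29) to below it. On chip B quantile normalization gave 898 and single-gene probe sets only 187. Leaving Slc22a8, a blood-brain barrier gene, out of the panel was added after seeing the data and gave 2 connexin probe sets and 571 probe sets on each type. The cause of these shifts was not tested. A pseudocount of 0.1 and the leaving out of ratios under 0.1 moved no count by over 1.5 times.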
